A study of Mus musculus with 11 samples.

Results

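Knockdown of YAP and TAZ was examined without heat in B16-OVA, a melanoma line from C57BL/6J mice that makes ovalbumin as a model antigen. Control siRNA cells (3 libraries) were compared with cells that had received a pool of siRNAs aimed at both genes (3 libraries), and neither group was heated. The genes described are those with at least 1 FPKM in at least 2 of these 6 libraries, which were 12012 of the 54686 entries of the deposited table. FPKM is the number of sequenced fragments of a gene scaled to transcript length and library size. The series also held heated cells (45 °C for 1 h, then 37 °C for 6 h, begun 48 h after transfection): 2 libraries with control siRNA (replicates 1 and 3, replicate 2 was not analysed here) and 3 with YAP/TAZ siRNA, and its title names the heat shock transcriptome as its subject. All cells were grown in serum-containing medium and all were transfected, so the control cells carried siRNA as well. The labels leave unstated when unheated cells were harvested and whether replicates came from separate dishes. Each p-value therefore reflects scatter among these libraries, which could be technical. In bulk RNA, fewer cells expressing a gene and less of its RNA per cell cannot be told apart.

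YAP (gene Yap1) and TAZ (gene Wwtr1) are co-activators without a DNA-binding domain of their own. When the Hippo kinases LATS1 and LATS2 are inactive they enter the nucleus and bind the TEAD factors, which recognise short CATTCC elements and drive genes of growth, adhesion and the cytoskeleton. Several of those genes, among them Lats2, Amotl2 and Ajuba, encode proteins that act back on the pathway. In melanoma, YAP and TAZ have been studied mainly for growth, invasion and drug tolerance, and the melanocyte programme is directed by a different factor, MITF.

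The libraries separated by siRNA. Correlations of log2(FPKM + 1) across genes were 0.975 to 0.984 within a group and 0.946 to 0.950 between groups, and the first principal component (59.8% of the variance) divided the groups. The second (12.2%) set YAP/TAZ siRNA replicate 2 apart from replicate 3. Read counts were not analysed here. The most frequent step between low values corresponded to 19.2 to 22.0 M (mega) fragments per library, and a step of smaller size, also frequent, to 38.3 to 43.9 M, so depth is known only to within that factor. Genes above 0 numbered 20000 to 20365 with control siRNA and 20632 to 20914 with YAP/TAZ siRNA. The 10 highest genes held 14.7% to 15.2% of the summed FPKM in control libraries and 17.3% to 17.4% in YAP/TAZ siRNA libraries. The melanoma markers Pmel, Mlana, Tyr, Tyrp1, Dct, Sox10 and Mitf were all well above the filter. Markers of other cells mostly did not pass it: 2 of 9 for fibroblasts and 1 of 10 for macrophages did, and 0 of 9 for lymphocytes, 0 of 7 for endothelium and 0 of 7 for keratinocytes. The fibroblast list summed to 2.88 to 3.16 FPKM in control and 1.46 to 1.63 FPKM in YAP/TAZ siRNA libraries, mostly Pdgfrb and Col1a2, with Dcn and Thy1 at 0 throughout. The macrophage list summed to 2.35 to 2.64 and 1.57 to 2.05 FPKM, with C1qa, C1qb, Fcgr1 and Itgam at 0.

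Both targeted mRNAs were reduced but not abolished. Yap1 (ENSMUSG00000053110, GRCm38 chromosome 9, 7931999 to 8004596) stood at 7.26, 5.79 and 15.6 FPKM in the control libraries and at 2.75, 3.02 and 2.54 FPKM in the YAP/TAZ siRNA libraries. The groups did not overlap, and control replicate 3 was far above the other controls. Yap1 fell by 1.38 on the log2 scale (standard error 0.30, adjusted p = 0.00414 by limma with Benjamini-Hochberg adjustment over all genes tested). Wwtr1 stood at 5.37, 6.28 and 8.20 FPKM against 1.83, 1.83 and 1.65 FPKM, again without overlap, and fell by 1.45 (standard error 0.16, adjusted p = 5.55e-05). Changes are on the log2(FPKM + 1) scale throughout, which understates those of low genes, and a gene is said to have risen or fallen only where its adjusted p was under 0.05.

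Among the partners of YAP and TAZ, the TEAD cofactor gene Vgll3 changed most. Its protein, like YAP and TAZ, binds TEAD factors and has no DNA-binding domain. It stood at 23.8, 25.3 and 25.5 FPKM with control siRNA and at 6.37, 6.49 and 3.46 FPKM with YAP/TAZ siRNA, a fall of 2.04 (standard error 0.37, adjusted p = 0.0013). Of the TEAD factors themselves, Tead4 fell by 0.59 (9.01 ± 1.58 to 5.62 ± 0.53 FPKM, mean ± SD, n = 3 each). Tead3 fell by 0.24, a call that ended without control replicate 2 or 3 or YAP/TAZ siRNA replicate 2. Tead2 rose by 0.34, a call that ended without control replicate 1 or 2 or YAP/TAZ siRNA replicate 1 or 3. Tead1 was at 1.33 ± 0.71 and 1.21 ± 0.26 FPKM and Vgll4 at 16.5 ± 0.91 and 17.6 ± 0.34 FPKM, and neither was called.

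The 250 bases before the transcription start of 3 of the most reduced genes are shown because each holds the TEAD element. They come from RefSeq (GRCm38.p6) and were chosen after the values were seen. Capitals mark the element, which on these strands reads as CATTCC, the reverse complement of GGAATG. The search covered both strands and counted CATTCC and GGAATG alike. In Ccn1 (chr3:145649986-145650235, minus strand) the element began 103 bases before the start, in Ajuba (chr14:54577662-54577911, minus strand) elements began 186 and 164 bases before it, and in Vgll3 (chr16:65814939-65815188, plus strand) it began 63 bases before it. These distances are from the RefSeq start. The GENCODE starts of Ajuba and Vgll3 lie further downstream, 289 and 267 bases after the Ajuba elements and 131 bases after that of Vgll3.
Ccn1: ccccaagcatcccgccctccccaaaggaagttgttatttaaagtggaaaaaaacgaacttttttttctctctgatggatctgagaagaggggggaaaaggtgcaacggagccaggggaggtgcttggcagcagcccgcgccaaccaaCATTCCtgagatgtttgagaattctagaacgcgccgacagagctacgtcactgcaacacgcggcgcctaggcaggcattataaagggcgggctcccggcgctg
Ajuba: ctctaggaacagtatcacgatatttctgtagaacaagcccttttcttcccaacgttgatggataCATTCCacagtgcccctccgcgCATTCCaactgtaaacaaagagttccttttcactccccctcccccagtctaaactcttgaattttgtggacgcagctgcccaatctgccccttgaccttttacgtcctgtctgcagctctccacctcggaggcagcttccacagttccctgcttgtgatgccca
Vgll3: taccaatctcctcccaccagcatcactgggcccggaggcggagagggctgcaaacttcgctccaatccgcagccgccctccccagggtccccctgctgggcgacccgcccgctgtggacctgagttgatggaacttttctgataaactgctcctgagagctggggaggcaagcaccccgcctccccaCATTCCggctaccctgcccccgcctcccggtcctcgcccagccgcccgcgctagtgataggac
Over the windows of the table, which also include the first bases of the transcript, the element occurred in 5 of 9 fallen YAP/TAZ-TEAD target genes that had an entry. It occurred in 16.6% of all 27025 genes with an entry, in 13.7% of the tested genes with one and in 14% of the fallen ones. Ccn2 has no entry. A match here is a run of letters and does not show binding.

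The genes most often used to read YAP activity lost most of their mRNA. Ccn1 (Cyr61; chromosome 3, 145646976 to 145649981) encodes a secreted matricellular protein. It was at 13.6, 14.4 and 13.3 FPKM in control libraries and at 1.54, 1.70 and 1.31 FPKM in YAP/TAZ siRNA libraries, and it fell by 2.56 (standard error 0.10, adjusted p = 2.21e-07). Ccn2 (Ctgf), its close relative, went from 4.112, 3.723 and 3.799 FPKM to 0.41, 0.27 and 0.38 FPKM, a fall of 1.85 (standard error 0.08, adjusted p = 2.51e-07). Every YAP/TAZ siRNA value of both genes lay below every control value, but Ccn2 passed the filter through the control libraries alone, so that a lower value was a condition of its being tested.

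The wider target list did not move as one. Of 36 listed YAP/TAZ-TEAD target genes 23 passed the filter, 3 of them (Ccn2, Ccdc80 and Thbs1) through the control libraries alone. Of those 23, 12 fell, 4 rose and 7 were not called, with a median log2 change of -0.33, against 23% lower, 28.4% higher and a median of 0.03 among all genes tested. The list was drawn from general knowledge of the pathway, mostly from other cell types. Besides Ccn1 and Ccn2, those that fell were Ccdc80 (-1.53), the LIM-domain LATS inhibitor Ajuba (-1.35), the matricellular gene Thbs1 (-1.14), the cytokinesis scaffold Anln (-1.02), the kinase gene Lats2 (-0.87), the tissue factor gene F3 (-0.70), the survivin gene Birc5 (-0.64), the angiomotin family gene Amotl2 (-0.60), Crim1 (-0.33) and Myof (-0.27), whose call ended without control replicate 1 or 2 (adjusted p = 0.0543 and 0.0594, limma). Ajuba was at 15.5, 16.4 and 15.2 FPKM against 4.87, 6.07 and 5.73 FPKM, and Amotl2 at 7.05, 6.12 and 6.45 FPKM against 4.02, 3.94 and 3.89 FPKM.

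Some familiar targets went the other way or were not there to read. Axl, a receptor tyrosine kinase gene, rose by 0.33 from 2.15, 2.05 and 1.69 FPKM to 2.79, 2.67 and 2.68 FPKM (adjusted p = 0.00263). Tgfb2 rose by 0.97 from 1.22 ± 0.16 to 3.34 ± 0.13 FPKM, and Gadd45a and Cavin2 rose by 0.83 and 0.54. Ankrd1 and Areg, strong targets in epithelial cells, were listed at 0 in all 6 libraries, as was Egfr. The plot of target genes by library shows these shifts value by value.

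**Figure D1:**
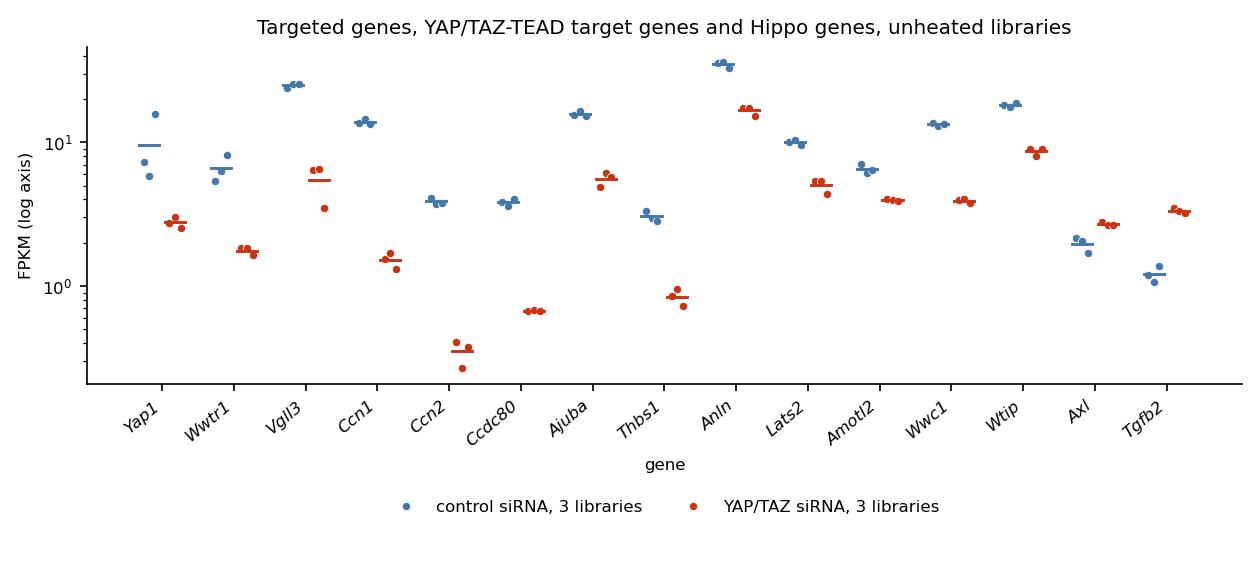
FPKM on a log axis of the targeted genes (Yap1, Wwtr1), the TEAD cofactor Vgll3, 10 YAP/TAZ-TEAD target genes and the Hippo genes Wwc1 and Wtip; points are single unheated libraries and bars are means of 3. For every gene shown the blue control points and the red YAP/TAZ siRNA points do not overlap, and only Axl and Tgfb2 are higher with YAP/TAZ siRNA.

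Wwc1 and Lats2, which encode negative regulators of YAP, were among the fallen Hippo genes. Wwc1 (Kibra), an upstream activator of LATS, was at 13.6, 13.0 and 13.3 FPKM with control siRNA and at 3.97, 4.04 and 3.75 FPKM with YAP/TAZ siRNA, a fall of 1.54 (standard error 0.05, adjusted p = 1.33e-07). Lats2 went from 9.99 ± 0.36 to 5.03 ± 0.59 FPKM. The LATS inhibitor gene Ajuba and its relative Wtip fell too, by 1.35 and 0.98. Of the 31 Hippo components tested 10 fell (32.3%), 5 rose (16.1%) and 16 were not called. Among all genes tested 23% fell and 28.4% rose. Of the 31, 1 passed the filter through the YAP/TAZ siRNA libraries alone. The core kinase and scaffold genes Lats1, Stk3, Sav1 and Nf2 were not called, while Stk4 was lower by 0.29, a call that ended without control replicate 2 (adjusted p = 0.0526, limma).

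Across all genes tested, 6177 (51.4%) were called: 3415 higher (28.4%) and 2762 lower (23%) with YAP/TAZ siRNA. Most changes were small, with a median of 0.44 among higher and -0.43 among lower genes, and 3674 calls were under 0.5 in size. At least 2-fold changes numbered 293 higher (2.44%) and 120 lower (0.999%). The direction varied with level: 33.1% of genes with a mean under 2 FPKM rose and 11.9% fell, against 19.4% and 40.3% of those at 50 FPKM or more. Of the genes tested, 413 passed the filter through the YAP/TAZ siRNA libraries alone and 149 through the control libraries alone. Both groups lay apart, without overlap, for 3968 genes that were higher (33%) and 3247 that were lower (27%), and 50.4% of genes were both called and apart. Scaling each library by the median of ratios gave 3101 rises and 3028 falls, quantile normalization gave 3034 and 3062, and a filter at 5 FPKM gave 2140 and 2260. Among 876 processed pseudogenes 269 were lower and 51 higher, and their values cannot be told apart from reads of the parent genes.

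**Figure D2:**
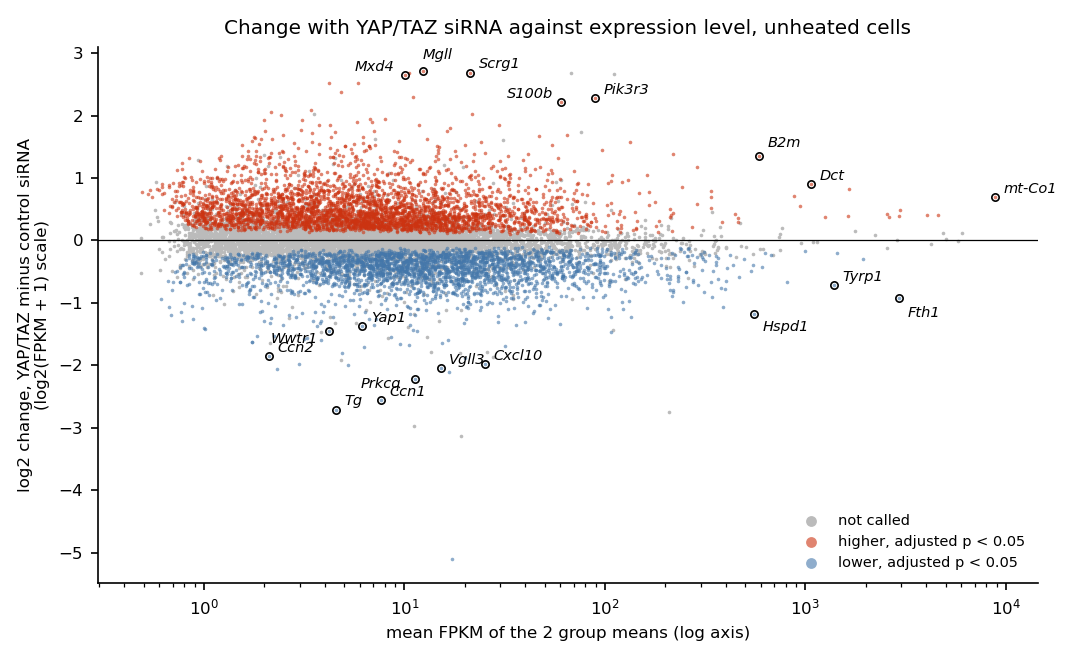
Log2 change with YAP/TAZ siRNA against the mean FPKM of the 2 group means (log axis) for the 12012 genes tested in unheated cells; red is higher, blue lower and grey not called, with 19 named genes circled. Blue points become more frequent to the right, and the lowest point, at -5.10, is the microRNA gene Mir5114, a short feature for which FPKM is unreliable.

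Of the 20 protein-coding genes with the greatest falls, Ccn1 and Ccn2 were on the target list. Tg, the thyroglobulin gene, fell most of these, from 8.55, 8.61 and 8.80 FPKM to 0.54, 0.44 and 0.45 FPKM (-2.71, standard error 0.07, adjusted p = 4.79e-08). Prkcq, which encodes protein kinase C theta, went from 18.4, 19.9 and 19.5 FPKM to 3.19, 3.40 and 3.39 FPKM, a fall of 2.23. The oncofetal genes Igf2bp1 and Hmga2 fell by 2.06 (4.35 ± 0.33 to 0.283 ± 0.014 FPKM) and by 1.67 (16.6 ± 1.02 to 4.52 ± 0.07 FPKM). HMGA2 is a chromatin protein and IGF2BP1 binds mRNA. Both are let-7 targets normally silent in adult tissue. Others among the 20 were Kank4 (-2.00), Lims2 (-1.98), the myosin light chain gene Myl9 (-1.81, 8.14 ± 0.27 to 1.63 ± 0.40 FPKM), Frmd3 (-1.60) and Krt80 (-1.58). Boc, a hedgehog co-receptor gene (-1.67), the procollagen processing gene Pcolce (-1.65), Gxylt2 (-1.88), Masp1 (-1.63), Mpp6 (-1.60) and Atoh8 (-1.62) belonged to the same 20. Tg, Ccn2, Igf2bp1, Lims2, Masp1 and Atoh8 passed the filter through the control libraries alone. The mitochondrial import gene Tomm5 was lower by 1.70, but its controls stood at 20.8, 64.9 and 64.8 FPKM and the call ended without control replicate 2 or 3.

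The greatest rises among protein-coding genes were in Mgll, Scrg1 and Mxd4. Mgll encodes monoacylglycerol lipase, which frees fatty acids from monoglycerides. It was at 2.01, 2.82 and 2.84 FPKM in control and 21.8, 21.4 and 23.1 FPKM in YAP/TAZ siRNA libraries, a rise of 2.71 (standard error 0.09, adjusted p = 1.33e-07). Scrg1 rose by 2.69, from 4.49, 4.59 and 5.98 FPKM to 37.5, 35.5 and 39.9 FPKM. Mxd4 encodes a MAX partner that opposes MYC. It rose by 2.65, from 2.57, 1.29 and 2.40 FPKM to 18.6, 17.2 and 18.1 FPKM. Others among the 20 highest were S100b, which encodes a calcium-binding protein (2.22, 20.8 ± 1.31 to 101 ± 9.77 FPKM), and the orphan receptor gene Gpr37 (2.03, 7.97 ± 0.41 to 35.5 ± 1.32 FPKM). Pik3r3, a PI3-kinase regulatory subunit gene, rose by 2.28 (29.8 ± 1.71 to 148 ± 7.61 FPKM), the coenzyme Q kinase gene Coq8a by 2.38, the heparanase gene Hpse by 1.94, the autophagy regulator Trp53inp2 by 1.85, the selenium transporter gene Selenop by 1.80 and the nuclear receptor gene Nr4a3 by 1.86. Kctd12 was listed at 0, 0 and 2.39 FPKM in control and at 7.55, 8.07 and 7.34 FPKM in YAP/TAZ siRNA libraries. A listed 0 in such a table can be a failed estimate, so no size is given for it.

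Cell cycle genes fell together. Of 37 mitosis genes 36 fell (97.3%, against 23% of all genes) and 0 rose, with a median change of -0.63 (all genes 0.03). The exception was Smc4, which was called lower under several alternatives. Aurka went from 53.5 ± 1.95 to 28.0 ± 0.87 FPKM (-0.91), Kif20a from 48.5 ± 0.52 to 25.5 ± 0.39 FPKM (-0.90) and Ccnb1, which encodes cyclin B1, from 35.4 ± 0.63 to 21.6 ± 0.26 FPKM (-0.69). In the DNA replication list 31 of 35 genes fell (88.6%) and 0 rose (median -0.56). Rrm2, the regulated subunit of ribonucleotide reductase, went from 182, 192 and 191 FPKM to 76.5, 82.6 and 81.3 FPKM, a fall of 1.22 (standard error 0.05, adjusted p = 2.79e-07), and the helicase genes Mcm3, Mcm5 and Mcm6 fell by 0.69, 0.66 and 0.57. These falls were near or below 2-fold in size.

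The G1 regulators were divided. Ccnd1, which encodes cyclin D1, fell from 79.4, 81.1 and 77.0 FPKM to 42.2, 43.3 and 40.7 FPKM (-0.90, standard error 0.04, adjusted p = 2.91e-07), and Ccne1 and E2f2 fell by 0.65 and 0.63. Cdkn1b, which encodes the CDK inhibitor p27, rose from 11.7, 13.3 and 11.8 FPKM to 19.2, 20.6 and 21.6 FPKM (0.70), and Cdk2 rose by 0.72. Cdkn1a, the p21 gene, was at 133 ± 1.77 and 117 ± 0.32 FPKM. It was lower by 0.19 (adjusted p = 0.0359), a call that ended when any 1 of the 6 unheated libraries was left out and without a filter. With quantile normalization the change was -0.04 (adjusted p = 0.657, limma). Of the 21 listed genes that were tested 11 fell (52.4%), 4 rose (19.0%) and 6 were not called. Among all genes tested 23% fell and 28.4% rose.

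Myc fell while 3 of its antagonist genes rose. Myc fell from 58.0, 49.6 and 51.6 FPKM to 27.2, 25.2 and 29.4 FPKM (-0.94, standard error 0.09, adjusted p = 2.98e-05), and its partner Max fell by 0.28. The antagonist genes Mnt and Mxi1 rose beside Mxd4, by 0.85 (7.42 ± 0.47 to 14.2 ± 0.60 FPKM) and 0.37. The other 5 network genes tested were not called. Of the 10 tested 3 rose (30%) and 2 fell (20%), near the 28.4% and 23% of all genes. Ribosome biogenesis genes had the lowest median of the growth lists: 32 of 34 fell (94.1%), 0 rose and 2 were not called, with a median of -0.82. Nop2, a ribosomal RNA methyltransferase gene, was at 108, 109 and 115 FPKM against 51.0, 52.0 and 52.8 FPKM (-1.08, adjusted p = 1.55e-07), the pseudouridine synthase gene Dkc1 fell by 1.01, Mybbp1a by 1.028 and the nucleolar helicase gene Ddx21 by 0.91. Of 79 ribosomal protein genes 24 fell (30.4%) and 0 rose, with a median of -0.21. That share of falls lies between the 23% of all genes and the 40.3% of genes at 50 FPKM or more. Their many pseudogenes make single values uncertain. Proteasome subunit genes also fell, 23 of 31 (74.2%) with 0 higher and a median of -0.24, led by Psmb7 (-0.46) and Psmd7 (-0.39).

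Chaperone genes were lower before any heat was applied. Among 39 heat shock chaperone genes the median change was -0.35. There were 22 falls (56.4%) and 2 rises (5.13%), against 23% and 28.4% of all genes tested. The summed level of the list was 4525 to 4754 FPKM in control and 2763 to 2940 FPKM in YAP/TAZ siRNA libraries. Hspd1, the mitochondrial Hsp60 gene, went from 751, 789 and 771 FPKM to 318, 350 and 351 FPKM (-1.18, standard error 0.05, adjusted p = 2.48e-07). The cytosolic Hsp90 gene Hsp90aa1 went from 525 ± 17.0 to 250 ± 9.13 FPKM (-1.07), its constitutive partner Hsp90ab1 fell by 0.66, the constitutive Hsp70 gene Hspa8 by 0.78 and the Hsp110 gene Hsph1 by 1.10. Hsf1, the master regulator of the heat shock response, fell by 0.55 (6.31 ± 0.12 to 3.98 ± 0.24 FPKM, adjusted p = 2.7e-05). The heat-inducible genes Hspa1a and Hspb1 were not called, with Hspa1a at 1.24 ± 0.02 and 1.14 ± 0.14 FPKM and Hspb1 at 14.7 ± 2.38 and 11.3 ± 2.04 FPKM.

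Antioxidant genes of the NRF2 programme fell with them, with a median of -0.49. Of 18 tested 13 fell (72.2%) and 2 rose (11.1%), against 23% and 28.4% of all genes. Fth1, the ferritin heavy chain gene that stores iron, fell from 3845 ± 201 to 2030 ± 116 FPKM (-0.92). The thioredoxin reductase gene Txnrd1 fell by 0.85, and the pentose phosphate genes Taldo1, G6pdx and Pgd by 0.89, 0.73 and 0.57. The glycolysis and hypoxia list, with 8 of 29 genes lower (27.6%) and 6 higher (20.7%), was near the shares of all genes (23% and 28.4%). Of the 29, 1 passed the filter through the YAP/TAZ siRNA libraries alone. Within it Eno1 and Pgam1 fell by 0.82 and 0.76 and the glucose transporter gene Slc2a1 by 0.69, while Aldoc rose by 1.18 and Ndrg1 by 0.60.

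**Figure D3:**
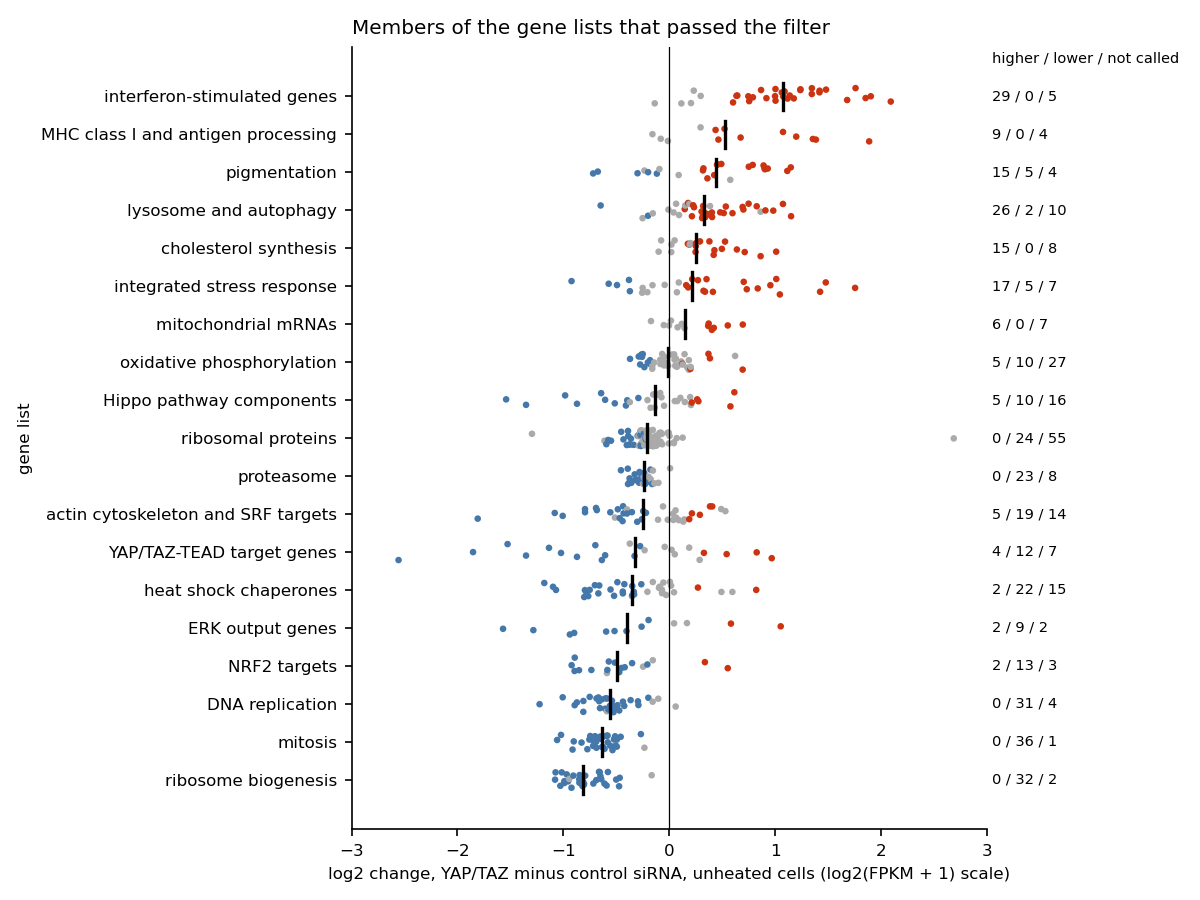
Log2 changes of the members of 19 gene lists that passed the filter (1 point per gene; red higher, blue lower, grey not called) with each list's median as a black bar; the counts at the right give the calls. Interferon-stimulated genes lie to the right at a median of 1.07, and ribosome biogenesis, mitosis and DNA replication genes lie to the left at -0.82, -0.63 and -0.56.

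Interferon-stimulated genes rose, while interferon mRNAs were at or near 0. Of 46 listed genes 34 passed the filter, 7 of them through the YAP/TAZ siRNA libraries alone. Of these, 29 rose (85.3%), 0 fell and 5 were not called, with a median of 1.07, and 21 rose by at least 2-fold. Among all genes tested 28.4% rose, 23% fell and 2.44% rose by at least 2-fold. The interferon signalling genes Stat2 and Irf9 rose by 1.06 and 1.09. The RNA sensor gene Ddx58 (RIG-I) rose from 2.20, 2.70 and 2.13 FPKM to 11.04, 11.92 and 11.52 FPKM (1.90), and the antiviral genes Oas1g, Samd9l, Ifi27 and Isg15 rose by 1.86, 1.76, 1.68 and 1.18. Not every gene of the set followed: Ifit1, Ifit2 and Bst2 were at 5.77 ± 0.63 and 6.94 ± 0.55, 12.4 ± 0.62 and 13.6 ± 1.63, and 59.6 ± 6.63 and 69.2 ± 11.04 FPKM, and were not called. Ifit1 was called higher without control replicate 2 or YAP/TAZ siRNA heated replicate 3, and Bst2 without YAP/TAZ siRNA replicate 2.

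Of 11 interferon genes, chosen after the rises were seen, 9 were listed at 0 in all 6 libraries and none exceeded 0.056 FPKM, while 5 receptor genes were all detected. Ifngr2, a receptor chain for interferon gamma, was at 12.2, 12.7 and 12.6 FPKM with control siRNA and at 21.7, 23.7 and 22.9 FPKM with YAP/TAZ siRNA. Of 12 genes tested for sensors of double-stranded RNA and their effectors, some of them also interferon-stimulated, 9 rose (75%) and 1 fell (8.33%). Among all genes tested 28.4% rose and 23% fell. Of the 12, 2 passed the filter through the YAP/TAZ siRNA libraries alone, so that a higher value was a condition of their being tested. Those that rose included Ifih1 (MDA5, 0.60) and Adar (0.60). The Argonaute and small RNA genes, which siRNAs engage, included 1 of 12 that rose and 3 that fell (25.0%, near the 23% of all genes). Cxcl10, a chemokine gene usually induced by interferon, went the other way. It fell from 42.3, 42.9 and 37.0 FPKM to 10.0, 8.02 and 10.9 FPKM (-1.98, standard error 0.16, adjusted p = 9.12e-06).

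Antigen presentation genes rose as well. B2m, the invariant chain of MHC class I, went from 314, 334 and 339 FPKM to 812, 786 and 942 FPKM (1.36, standard error 0.07, adjusted p = 9.16e-07). The heavy chain genes H2-K1 and H2-D1 rose by 1.89 (1.90 ± 0.15 to 9.74 ± 0.86 FPKM) and 1.20 (16.4 ± 1.34 to 38.9 ± 2.34 FPKM). Reads of these alleles can be shared between them. The peptide loading gene Tapbp rose by 1.08 and Cd274, which encodes PD-L1, by 1.39 (1.62 ± 0.22 to 5.84 ± 0.51 FPKM). The list had 9 rises (69.2%) and 0 falls among 13 genes tested (median 0.52), against 28.4% and 23% of all genes. Its summed level was 872 to 971 FPKM in control and 1397 to 1603 FPKM in YAP/TAZ siRNA libraries.

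Upstream bases of 2 of these genes are shown because they hold the interferon-stimulated response element, searched as GAAA, any 2 bases, then GAAA on both strands and marked in capitals. The motif was added after the data were seen. In Oas1g (chr5:120887614-120887863, minus strand) overlapping matches began 18 and 12 bases before the transcription start, and in B2m (chr2:122147437-122147686, plus strand) the match began 139 bases before it.
Oas1g: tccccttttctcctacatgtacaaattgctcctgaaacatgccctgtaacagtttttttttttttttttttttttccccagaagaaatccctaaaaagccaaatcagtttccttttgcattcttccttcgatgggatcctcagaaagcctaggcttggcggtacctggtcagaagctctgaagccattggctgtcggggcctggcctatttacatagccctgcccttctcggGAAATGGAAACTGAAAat
B2m: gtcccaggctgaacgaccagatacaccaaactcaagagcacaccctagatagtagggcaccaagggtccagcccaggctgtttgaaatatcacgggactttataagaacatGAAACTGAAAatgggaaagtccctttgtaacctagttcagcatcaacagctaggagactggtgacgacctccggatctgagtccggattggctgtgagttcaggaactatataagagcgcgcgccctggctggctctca
The element occurred in the windows of 13 of 20 interferon-stimulated genes that rose and had an entry, against 3.99% of all genes with an entry and 3.4% of those tested. Among all genes at least 2-fold higher it occurred in 12.4% (26 of 209), and among those at least 2-fold lower in 1.19% (1 of 84). The 209 can include listed interferon-stimulated genes, 21 of which rose by at least 2-fold, so these 2 shares are not separate observations. The share without them was not computed. For comparison, the TEAD element occurred in 17.2% and 15.5% of the same sets.

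Pigment cell genes rose more often than they fell. Of 24 tested 15 rose (62.5%), 5 fell (20.8%) and 4 were not called, with a median of 0.44. Among all genes tested 28.4% rose and 23% fell, so the share of falls was near that of all genes. Tyr, which encodes tyrosinase, the rate-limiting enzyme of melanin synthesis, went from 55.4, 58.2 and 56.8 FPKM to 100, 111 and 111 FPKM (0.91, standard error 0.06, adjusted p = 3.09e-06). Dct rose from 744 ± 10.6 to 1391 ± 35.0 FPKM (0.90), the melanosome matrix gene Pmel by 0.49, Sox10 by 0.46, and the melanosome transport genes Myo5a and Rab27a by 1.12 and 0.79. Tyrp1, the third enzyme of the pathway, fell from 1724 ± 87.5 to 1047 ± 54.7 FPKM (-0.72, adjusted p = 5.36e-05), and Rab32 fell by 0.67. Mlana was lower by 0.30, a call that ended without control replicate 1 or 3 or YAP/TAZ siRNA replicate 1 or 2. Mitf was at 55.8, 56.9 and 51.0 FPKM in control and 83.5, 84.7 and 77.3 FPKM in YAP/TAZ siRNA libraries. These values do not overlap, yet Mitf was not called (0.58, adjusted p = 0.257 by limma over all 11 libraries). Its adjusted p was 0.000627 in the 6 unheated libraries alone and 9.74e-05 without YAP/TAZ siRNA heated replicate 1.

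Lysosome and sterol genes rose. The lysosome and autophagy list had 26 rises (68.4%) and 2 falls (5.26%) among 38 genes (median 0.33), against 28.4% and 23% of all genes. Of the 38, 1 passed the filter through the YAP/TAZ siRNA libraries alone. The neuraminidase gene Neu1 rose by 0.98 (11.8 ± 0.26 to 24.4 ± 1.25 FPKM), the prosaposin gene Psap by 0.70, Tpp1 by 0.69 and the acid glucosidase gene Gaa by 0.60, while the proton pump subunit gene Atp6v1b2 fell by 0.65. In cholesterol synthesis 15 of 23 genes rose (65.2%), 0 fell and 8 were not called (median 0.25). Msmo1 was at 15.6, 12.8 and 12.4 FPKM against 25.4, 28.8 and 30.9 FPKM (1.01), and Hmgcs1, an early enzyme of the pathway, rose by 0.50. The sterol sensor gene Insig1 rose by 0.64. Mitochondrially encoded mRNAs gained much FPKM: mt-Co1 went from 6768 ± 174 to 10958 ± 102 FPKM (0.70), although as the highest gene of every library it shows 0 under quantile normalization by construction. Of 13 such genes 6 rose (46.2%) and 0 fell (median 0.15). Of 42 nuclear genes of oxidative phosphorylation 10 fell (23.8%, near the 23% of all genes) and 5 rose (11.9%).

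**Figure D4:**
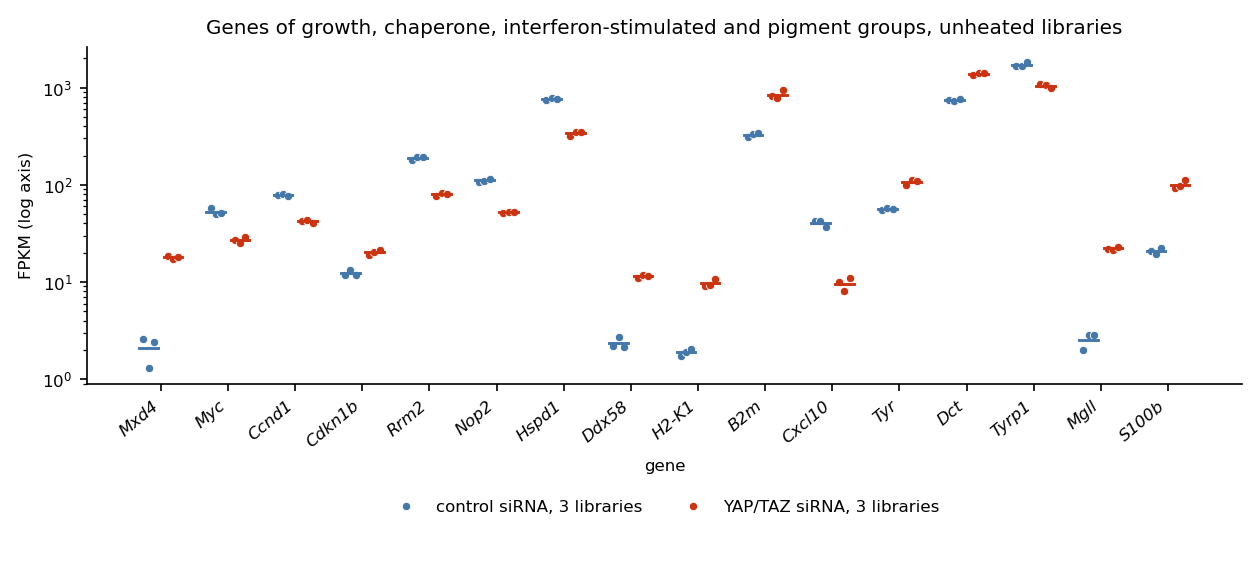
FPKM on a log axis of genes of the growth, chaperone, interferon-stimulated, antigen presentation and pigment groups together with Cxcl10, Mgll and S100b; points are single unheated libraries and bars are means of 3. The groups do not overlap for any gene shown, with red above blue for Mxd4, Cdkn1b, Ddx58, H2-K1, B2m, Tyr, Dct, Mgll and S100b and below it for the others.

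The list of actin cytoskeleton and SRF target genes had 19 falls and 5 rises among 38 (50.0% and 13.2%, median -0.25), against 23% and 28.4% of all genes. Tpm1, which encodes tropomyosin, went from 48.0, 48.3 and 48.3 FPKM to 21.3, 23.3 and 22.2 FPKM (-1.08, adjusted p = 5.01e-07), and Cnn2, Actn4 and Actn1 fell by 0.79, 0.69 and 0.43. Of 34 matrix and adhesion genes 13 fell (38.2%) and 9 rose (26.5%, near the share of all genes). Of the 34, 4 passed the filter through the control libraries alone, so that a lower value was a condition of their being tested. The basement membrane gene Col4a1 fell by 0.90 and Sparc, a secreted matrix protein gene, by 0.98 (327 ± 5.37 to 166 ± 6.07 FPKM), while the integrin gene Itga9 rose by 1.33 and the collagenase gene Mmp14 by 0.60. Tubulin genes split by isotype: Tubb3, the neuronal beta-tubulin gene, rose by 0.97 (87.5 ± 0.59 to 172 ± 1.59 FPKM) and Tubb2b by 0.84, while Tubb5, Tuba1b and Tuba1c fell by 0.66, 0.69 and 0.60.

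Of 13 transcripts that follow ERK signalling 9 fell (69.2%) and 2 rose (15.4%, median -0.40), against 23% and 28.4% of all genes. Among the 13, 1 passed the filter through the control libraries alone. Etv4, an ETS factor gene, went from 5.68, 5.38 and 5.03 FPKM to 1.13, 1.28 and 1.02 FPKM (-1.57, adjusted p = 1.01e-06), and the feedback inhibitor gene Spry4 fell by 1.28. Phlda1 rose by 1.05 (70.3 ± 0.91 to 147 ± 3.19 FPKM). Of the growth factor genes, Tgfb1 rose by 1.13 (1.22 ± 0.09 to 3.86 ± 0.36 FPKM) and Vegfa by 0.60, 2 genes named after their values were seen.

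Genes of the integrated stress response rose in 17 of 29 cases and fell in 5 (58.6% and 17.2%, median 0.22), against 28.4% and 23% of all genes tested. Of the 29, 1 passed the filter through the YAP/TAZ siRNA libraries alone, so that a higher value was a condition of its being tested. Chac1, which degrades glutathione, went from 2.49, 2.87 and 2.69 FPKM to 10.97, 10.72 and 12.71 FPKM (1.76, standard error 0.08, adjusted p = 3.07e-07), and Trib3, Ddit4 and Atf3 rose by 1.48, 1.43 and 1.05. Of 24 p53 targets 11 fell (45.8%) and 6 rose (25.0%, near the share of all genes), with a median of -0.21. Gtse1 and Mdm2 fell by 1.04 and 0.48, while the cell death gene Bbc3 (PUMA) rose by 1.37 and Trp53inp1 by 1.16. The BH3-only genes Bmf and Bcl2l11 (BIM) rose by 1.59 and 0.54. Both passed the filter through the YAP/TAZ siRNA libraries alone. Clock genes included 7 of 12 that rose (58.3%, against 28.4% of all genes), led by Bhlhe41 (1.16), Cry1 (0.88) and Cry2 (0.75), and 2 that fell (16.7%, against 23%), Clock (-0.96) and Nr1d1 (-0.79).

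The heated cells give the same siRNA contrast in 5 other libraries, with no library in common. There, 4531 of the 12012 genes were higher (37.7%) and 1912 lower (15.9%). Of the 293 genes at least 2-fold higher without heat 89.4% were higher after heat and 76.1% were called higher, and of the 120 at least 2-fold lower 93.3% were lower and 79.2% were called lower. Among all genes tested 63.9% were higher after heat. The direction of the smaller calls was kept less evenly: 85.2% of all genes that rose without heat and 59.8% of those that fell had the same sign after heat. Mgll (2.71 without heat, 2.73 after), Scrg1 (2.69 and 2.72), Yap1 (-1.38 and -1.43), Wwtr1 (-1.45 and -1.62), Ajuba (-1.35 and -1.39), Vgll3 (-2.04 and -2.02), Tyr (0.91 and 0.98) and Pmel (0.49 and 0.46) were not called for a difference between the contrasts.

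The size of the siRNA effect differed with heat for 4434 genes (36.9%), tested as the difference of the contrasts within 1 fit. It was higher after heat for 3062 and lower for 1372. With median-of-ratios scaling these were 1887 and 1868, with 1 total per library 2242 and 1511 and with quantile normalization 2034 and 1733. The median difference of all genes moved from 0.12 as deposited to 0.02 with median-of-ratios scaling. Without control heated replicate 1 the calls were 2014 and 925. The fall with YAP/TAZ siRNA was larger after heat for Ccn1 (-3.69), Ccn2 (-3.35) and Cxcl10 (-4.46). Ccn1 stood at 106 and 104 FPKM in heated control and at 6.28, 8.56 and 7.07 FPKM in heated YAP/TAZ siRNA libraries. Both groups were above their unheated means of 13.8 and 1.52 FPKM. The log2(FPKM + 1) scale understates changes at low levels, and these differences are not given here for other pseudocounts. Rrm2 and Nop2, both lower without heat, stood at -0.10 and -0.10 after heat in the values as deposited and were not called there. With median-of-ratios scaling the difference of the contrasts was smaller, at 0.99 and 0.85 against 1.12 and 0.98 as deposited. Their changes after heat under that scaling are not given here. In the DNA replication list, which had 31 falls and 0 rises without heat, 19 of 35 genes were higher and 3 lower after heat. In the chaperone list 27 of 39 were lower and 3 higher after heat, and in the interferon-stimulated list 23 of 34 were higher and 2 lower. Among all genes tested 37.7% were higher and 15.9% lower after heat. All these counts are from the values as deposited.

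Among genes called without heat whose unheated groups did not overlap, the 10 with the smallest p for the difference were taken. Of these, 6 rose without heat and fell after it. Atf3 was at 1.34, 1.72 and 1.20 FPKM in control and 3.878, 3.998 and 4.043 FPKM in YAP/TAZ siRNA libraries without heat, and at 74.0 and 56.2 against 6.26, 6.20 and 6.07 FPKM after heat. The groups did not overlap in either condition and their order was opposite. Sesn2, Trp53inp1, Bbc3, Chac1 and Slc38a2 had the same reversal. Mdm2 and Btg2 were lower in both conditions, by 0.48 and 0.29 without heat and by 2.39 and 3.84 after it. Tubb3 was higher in both (0.97 and 2.37), and Uhrf1, a DNA methylation maintenance gene, fell without heat (-0.89) and rose after it (0.49). In each case the difference was called under all 3 other scalings.

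**Figure D5:**
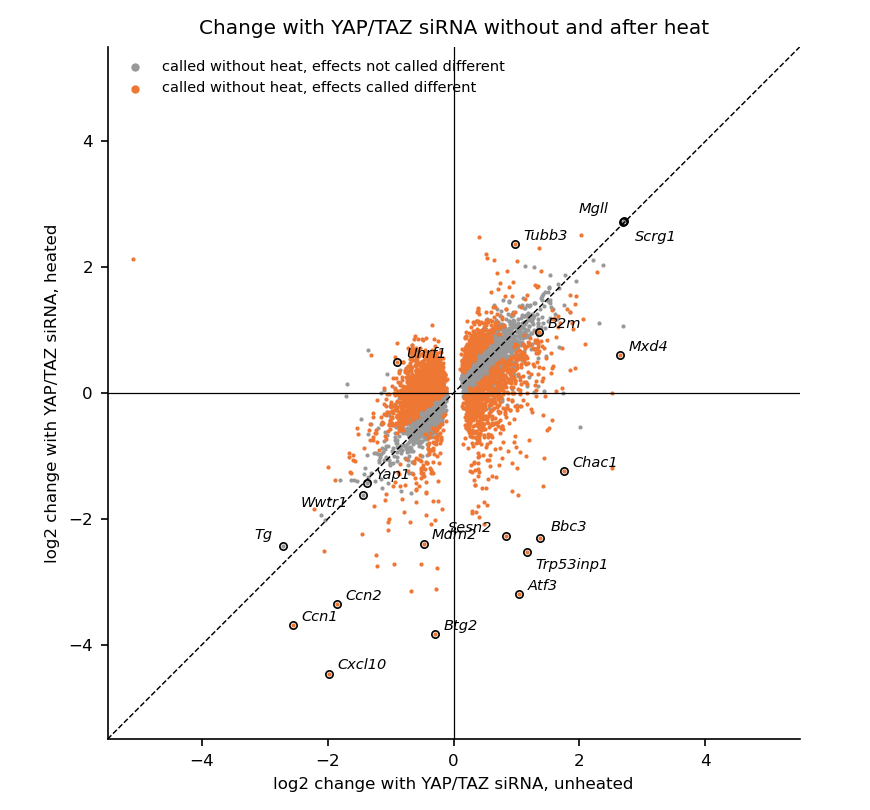
Log2 change with YAP/TAZ siRNA in heated cells (vertical) against that in unheated cells (horizontal) for the 6177 genes called without heat; orange points were called for a difference between the contrasts, and the dashed line marks equal changes. Mgll, Scrg1, Yap1 and Wwtr1 lie on or near the line, and Atf3, Sesn2, Trp53inp1, Bbc3 and Chac1 lie at the lower right, higher without heat and lower after it.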

How the data were processed

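RNA of B16-OVA cells was sequenced after Trizol extraction and NEBNext Ultra library preparation, per the labels' protocols. Tools listed in the submitters' processing notes are StringTie, HISAT2, SAMtools, DESeq2 and Trimmomatic 0.36, with the build GRCm38 and no roles. The sources used here give no settings and no use of strand, so overlapping and antisense genes are uncertain, as are near-identical copies (histone, tubulin, Oas1, Hspa1 and H2 genes). The authors deposited FPKM in 1 gene table, and 0% of its non-zero values were whole numbers (within 1e-06), so count models were not used.

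Values were analysed as log2(FPKM + 1). All 11 libraries entered 1 limma fit (3.58.1, R 4.3.3) with 4 group means, empirical Bayes with a trend, 7 residual degrees of freedom and 2-sided tests adjusted over 12012 genes (threshold 0.05). Heated libraries thus contribute to the spread. Limma was tested on simulated data for the unheated comparison with 200 of 12012 genes changed. It recovered 67.2% at a log2 change of 0.5, 86.6% at 1 and 100% at 2, with 6 false calls. Far fewer genes were changed there than the 51.4% called in these data, so these rates need not hold for the reported calls. Gene positions are from GENCODE M21 on GRCm38, and promoter windows from RefSeq GRCm38.p6 matched by symbol (8392 tested genes matched). Named genes were the 20 key genes and the 20 highest and 20 lowest called protein-coding genes (groups apart, higher mean at least 2 FPKM). Among genes called without heat with groups apart, the 10 greatest rises and falls in FPKM were added. The 10 smallest p for the difference with heat came from the same genes. Up to 5 members per list were named by p-value. The members of 46 lists and this rule were chosen with earlier results of these data known. Members named beyond the rule (called YAP/TAZ-TEAD targets and other list members) and Mir5114 were chosen after their values were seen. Tables and figures were made in Python 3.11.15 (pandas 2.3.3, numpy 2.4.6, matplotlib 3.10.9). The alternatives were other pseudocounts, filters, scalings and sets of libraries. Some members of the lists and of the rule are counted but not reported here by name.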

Additional observations from a re-analysis of the deposited data

Results flagged for a closer look

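The siRNA effect after heat minus that without heat was past the threshold (adjusted p under 0.05, limma, interaction term) for 17 of 26 genes whose changes with and without heat were set side by side. These 26 were chosen with their values known. The difference was past the threshold for 118 of the 177 tested genes that the text names, with the heat-inducible Hspa1a and Hspb1 among them. Among all genes tested the share was 36.9%. Some of the 177 were named for a small p of this same difference or after their values were seen. The 2 shares therefore cannot be compared. The difference was negative on the log2 scale for Atf3 (-4.24), Trp53inp1 (-3.70), Bbc3 (-3.67), Btg2 (-3.54), Sesn2 (-3.11), Chac1 (-3.001), Slc38a2 (-2.24) and Mdm2 (-1.92), which respond to stress or p53. It was also negative for the YAP/TAZ-TEAD targets Ccn1 (-1.13) and Ccn2 (-1.50), for Cxcl10 (-2.48), Mxd4 (-2.04) and B2m (-0.39). It was positive for Tubb3 (1.4), Uhrf1 (1.38), Rrm2 (1.12) and Nop2 (0.98). Mxd4 was at 6.05 and 5.30 FPKM in heated control and at 8.94, 9.57 and 8.92 FPKM in heated YAP/TAZ siRNA libraries.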

How the results depend on the processing

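All calls shared with the reported fit had the same direction under every alternative, and they made up 70.4% (filter at 5 FPKM) to 99.2% (pseudocount of 0.5) of the 6177 calls. With a filter at 5 FPKM, where fewer genes are tested, 2140 genes were higher and 194 were higher by at least 2-fold. With a pseudocount of 0.1 FPKM, which by construction enlarges changes of low genes, 614 were higher and 211 lower by at least 2-fold. Leaving out 1 library at a time gave 2980 to 3443 genes higher, 2421 to 2817 lower, 282 to 301 at least 2-fold higher and 113 to 123 at least 2-fold lower. The change of Yap1 ranged from -1.64 to -0.99 and that of Wwtr1 from -1.57 to -1.30. The count of genes whose siRNA effect differed with heat ranged from 2939 (without control heated replicate 1, which leaves that group 1 library, assumed to vary like the others) to 4625 (without YAP/TAZ siRNA unheated replicate 3). Without a filter those calls split into 2820 higher and 2728 lower. Tead1, which was not called, stood between -0.23 without control replicate 3 and 0.19 without control replicate 2. Also not called, Stk3 ranged from -0.12 without control replicate 1 to 0.0078 without control replicate 2, and Nf2 was at 0.0069 with quantile normalization. With a replicate block 3565 genes were higher and 2950 lower. Deviations of same-numbered unheated libraries correlated at 0.049, -0.028 and 0.071. Between unheated and heated YAP/TAZ siRNA libraries, same-numbered ones correlated at -0.068, 0.13 and 0.16 and differently numbered ones at -0.20 to 0.088. These correlations cannot decide whether the numbers pair the samples, because each deviation is taken from a mean of few libraries. Without read counts, the precision that depth gives to low genes is not known.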
